A study of Mus musculus with 3 samples.

Results

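The 9 genes described here belong to the sensing of interleukin 4 (IL-4) and interleukin 13 (IL-13) and to the programme these cytokines induce in myeloid cells. They were chosen by name: the receptor chains Il4ra (ENSMUSG00000030748) and Il13ra1 (ENSMUSG00000017057), the transcription factors Stat6 (ENSMUSG00000002147) and Klf4 (ENSMUSG00000003032), and the targets Retnla (ENSMUSG00000061100), Ccl24 (ENSMUSG00000004814), Tgfbi (ENSMUSG00000035493), Mrc1 (ENSMUSG00000026712) and Fcer2a (ENSMUSG00000005540). All 9 were among the 22548 genes counted. They were measured in 5023 cells kept from 6079 cell barcodes of 1 CITE-seq capture, an assay that reads a cell's mRNA together with oligonucleotide-tagged antibodies bound to its surface. The cells were sorted from ear-draining lymph nodes as migratory dendritic cells that are neither Langerhans cells nor type 1 conventional dendritic cells (cDC1).

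All mice carried Siglech-iCre (Tg/0), a ROSA26 LoxP-STOP-LoxP-RFP reporter and 1 knock-in copy of Tnfsf4, the gene of OX40L, which BFP reports. Their ears were painted with MC903 (calcipotriol, which causes a skin inflammation like atopic dermatitis) on days 0, 2 and 4, and the nodes were taken on day 5. RFP stays on in a cell once Siglech-driven Cre has been active in it or in its precursors, so it marks descent and not current Siglech expression. The gate took B220-negative, XCR1-negative, CD326-negative cells with high MHC class II and low to intermediate CD11c, and divided them by BFP and RFP into 4 populations. Each was stained with its own hashtag antibody, and 10400 BFP+RFP- cells were pooled with 5200 cells of each other population. No untreated mice are compared here, and how many mice each population came from is not stated in the sources used here.

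IL-4 binds the IL-4 receptor alpha chain, which pairs either with the common gamma chain or with IL-13 receptor alpha 1. The pair with IL-13 receptor alpha 1 also binds IL-13. Janus kinases on the receptor tails phosphorylate STAT6, which enters the nucleus, and in macrophages KLF4 is known to act with STAT6 at genes of alternative activation. Dermal dendritic cells of mouse skin are known to depend on IL-13 for part of their steady-state programme, and MC903 dermatitis is a model rich in type 2 cytokines.

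The hashtags and the antibody tags are what divided the cells below, so their 15-base barcodes, read from the deposited feature list, are shown with the population or protein each stands for.
Hashtag 1, BFP+RFP+: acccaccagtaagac
Hashtag 2, BFP-RFP+: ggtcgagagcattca
Hashtag 3, BFP+RFP-: cttgccgcatgtcat
Hashtag 4, BFP-RFP-: aaagcattcttcacg
CD11b tag: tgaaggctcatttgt
CD8a tag: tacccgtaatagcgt
CD172a tag: gattcccttgtagca
CD301b tag: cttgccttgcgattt

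The kept cells numbered 842 with both BFP and RFP, 982 BFP-RFP+, 2185 BFP+RFP- and, with neither, 1014. They gave 14140272 to 35590897 mRNA molecules (unique molecular identifiers, UMIs) per population, with medians of 13884 to 15182 per cell. Tnfsf4 stood at 305 UMIs per 1000000 mRNA UMIs (CPM) in BFP+RFP+ cells against 53.0 CPM in BFP-RFP+ cells, and at 102 CPM in BFP+RFP- cells against 19.8 CPM in BFP-RFP- cells. The RFP transcript stood at 23.5 and 21.0 CPM in the BFP+RFP+ and BFP-RFP+ cells, against 0.17 and 0.67 CPM in the BFP+RFP- and BFP-RFP- cells, so Tnfsf4 and RFP RNA ran with the sort labels. The 6 markers of conventional dendritic cells were all detected in every population, with summed levels of 6196 to 6423 CPM. All cells shared 1 capture, so each population is 1 sample: no test between populations is possible, no p-value is given, and the exact 95% intervals cover counting error only. A difference was counted when it passed 1.5-fold with at least 30 UMIs over both groups. Ratios are on the log2 scale with 0.5 UMI added to each count. Levels of different genes are not set against each other.

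Clustering without the 9 genes gave 10 clusters. Clusters 0, 1, 2, 5, 6 and 7 held 4527 cells (90.1%) and are called the 6 large clusters. They are given by number, since cluster 2 (Thy1, Dll4 and Myl7 leading) had 2 of 6 plasmacytoid dendritic cell markers raised. Cluster 3 (146 cells) was macrophage-like, with 9 of 9 macrophage markers raised and C1qa, C1qb and Lyz2 leading. It also had 6 of 7 markers of CD11b-positive type 2 dendritic cells, 5 of 6 monocyte markers and 3 of 3 proliferation markers raised. Of the 6 cells with most Mrc1, all in this cluster, 5 had 0 UMIs of the macrophage gene C1qa, and of the 6 with most Tgfbi 2 had 0. Cluster 4 (90 cells) was B cell-like, in spite of the B220-negative gate. Cluster 8 (226 cells) was T and NK cell-like, in spite of the gate on high MHC class II and on CD11c. Cluster 9 (34 cells, median 2838 UMIs) had 5 of 9 macrophage markers raised, with Lyz1, Ccl12 and Lyz2 leading. It was left unnamed for its low depth and for having no listed macrophage marker among its leading genes. It made up 0.83% of BFP+RFP+, 2.24% of BFP-RFP+, 0.18% of BFP+RFP- and 0.10% of BFP-RFP- cells. Macrophage-like cells made up 3.09% of BFP+RFP+ cells against 3.77% of BFP-RFP+ cells, and 1.97% of BFP+RFP- cells against 3.94% of BFP-RFP- cells.

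The 9 genes fell into those found in many cells and those held by few. Il4ra was detected in 2766 of the 5023 cells, Stat6 in 2163, Il13ra1 in 1912 and Klf4 in 1122. The 6 large clusters held 4537 of 5107 Il4ra UMIs, 3221 of 3412 Il13ra1 UMIs, 3153 of 3493 Stat6 UMIs and 2461 of 3007 Klf4 UMIs. The targets were found in 179 cells for Tgfbi, 135 for Mrc1, 93 for Fcer2a, 64 for Ccl24 and 9 for Retnla. Macrophage-like cells held 917 of 1086 Tgfbi UMIs and 281 of 428 Mrc1 UMIs. B cell-like cells held 137 of 209 Fcer2a UMIs. For Ccl24 the 6 large clusters held 589 of 695 UMIs, and for Retnla 2 macrophage-like cells held 675 of 683. Because the targets sat in rare cells, their level summed over all cells cannot by itself separate a difference per cell from one in cells captured. Tgfbi and Mrc1 are therefore also given inside the macrophage-like cluster below.

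**Figure D1:**
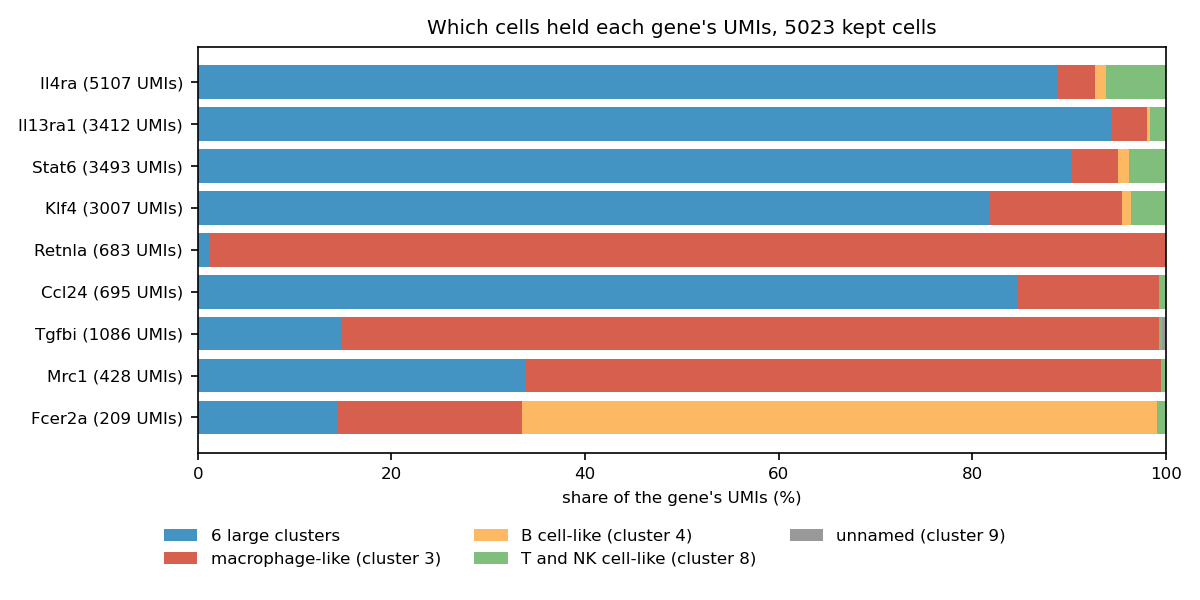
Share of each gene's UMIs (%, horizontal axis) held by the 6 large clusters and by the macrophage-like, B cell-like, T and NK cell-like and unnamed clusters, over 5023 kept cells. The 4 genes of the upper rows lay mostly in the large clusters, Tgfbi, Mrc1 and Retnla mostly in macrophage-like cells and Fcer2a mostly in B cell-like cells.

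Between BFP+RFP+ and BFP-RFP+ cells, 4 of the 8 genes with enough UMIs were past 1.5-fold lower and 1 was past 1.5-fold higher, beside 10.8% of 11208 genes lower and 2.82% higher. The lower ones were Il13ra1, Ccl24, Tgfbi and Mrc1 and the higher one was Fcer2a. Between BFP+RFP- and BFP-RFP- cells, 3 of 9 were lower (Ccl24, Tgfbi and Mrc1) and 1 was higher (Retnla), beside 6.67% of 11736 genes lower and 3.13% higher. Between BFP+RFP+ and BFP+RFP- cells, 2 of 9 were lower (Il13ra1 and Retnla) and 0 higher, beside 7.49% and 5.22% of 11656 genes. Between BFP-RFP+ and BFP-RFP- cells, 3 of 8 were lower (Tgfbi, Mrc1 and Fcer2a) and 1 higher (Ccl24), beside 4.25% and 6.35% of 11307 genes. In either direction 13.6%, 9.80%, 12.7% and 10.6% of genes passed 1.5-fold in these 4 comparisons. The median log2 ratio of the members with enough UMIs was -0.42, -0.30, -0.31 and -0.30 in the same order, and that of all tested genes -0.10, -0.07, -0.03 and -0.01. The comparisons share populations and are not independent.

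In the 6 large clusters alone, 4 members were past 1.5-fold lower in BFP+RFP+ against BFP-RFP+ cells (Il13ra1, Ccl24, Tgfbi and Mrc1) and 0 higher, beside 9.41% and 3.06% of genes. In BFP+RFP- against BFP-RFP- cells 1 was lower (Mrc1) and 0 higher, beside 5.15% and 2.54%. In BFP+RFP+ against BFP+RFP- cells 2 were lower (Il13ra1 and Tgfbi) and 0 higher, beside 7.49% and 5.74%. In BFP-RFP+ against BFP-RFP- cells 2 were higher (Ccl24 and Mrc1) and 0 lower, beside 6.26% and 3.81%. Of the 9 members 7 had enough UMIs there, without Retnla and Fcer2a.

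**Figure D2:**
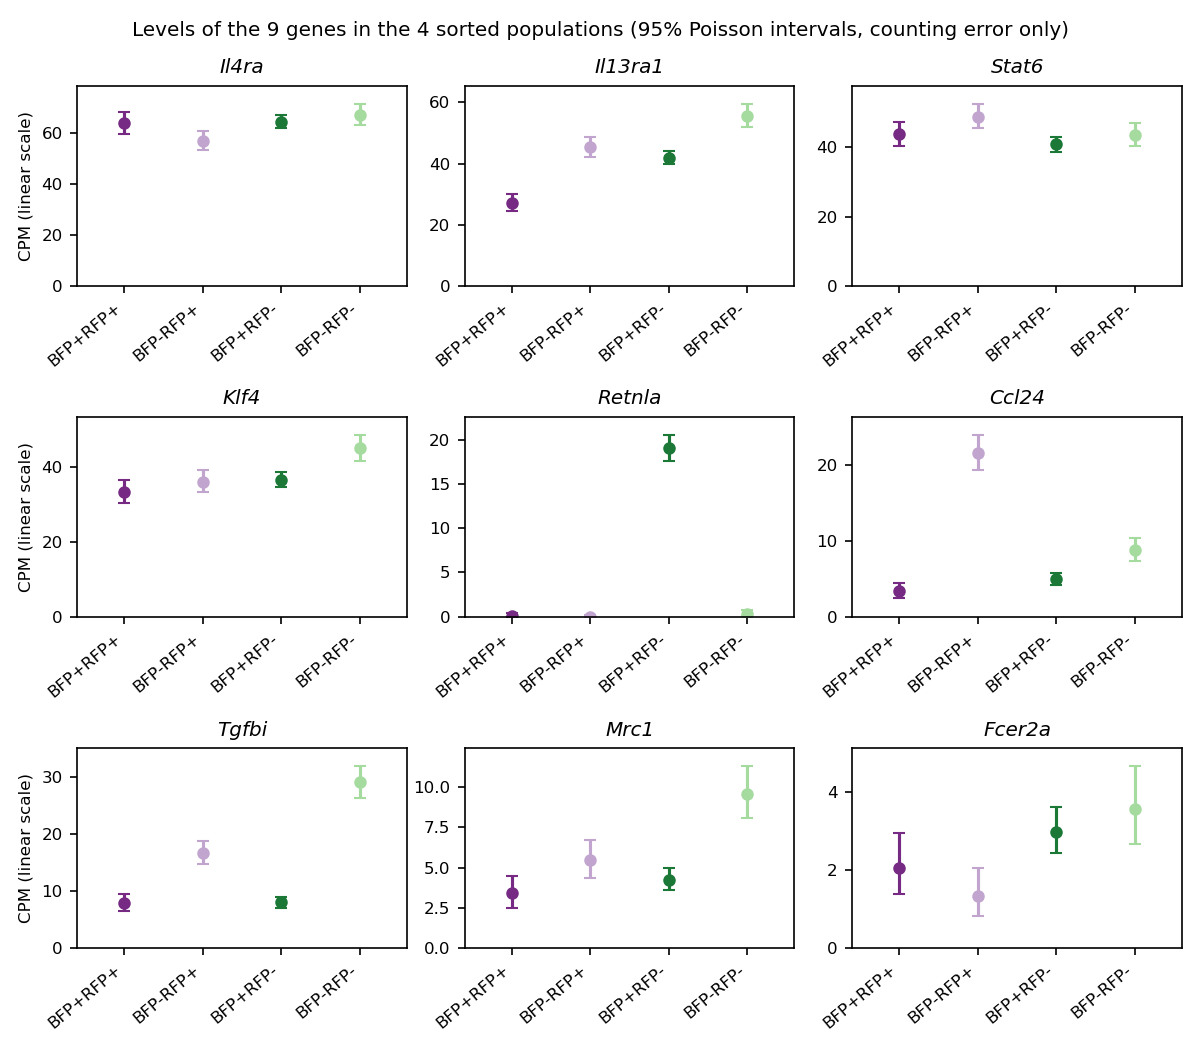
Level of each of the 9 genes (CPM, linear axes from 0 that differ between panels) in the 4 populations. Points are summed UMIs over summed mRNA UMIs and bars exact 95% Poisson intervals, which cover counting error only. Il13ra1 was lowest in BFP+RFP+ cells at 27.1 CPM and highest in BFP-RFP- cells at 55.5 CPM, and nearly all Retnla lay in BFP+RFP- cells.

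Il13ra1, the chain that lets the receptor bind IL-13, was the broadly detected gene that differed most between populations. It stood at 27.1 CPM (24.4 to 29.9) in BFP+RFP+ cells against 45.3 CPM (42.0 to 48.7) in BFP-RFP+ cells, a log2 ratio of -0.74 (-0.92 to -0.56). It stood at 41.9 CPM (39.8 to 44.0) in BFP+RFP- cells against 55.5 CPM (51.8 to 59.4) in BFP-RFP- cells, a log2 ratio of -0.41 (-0.53 to -0.28), which did not reach 1.5-fold. Ordered by level, BFP+RFP+ cells were lowest, BFP+RFP- and BFP-RFP+ cells had overlapping intervals in the middle, and BFP-RFP- cells were highest. RFP+ cells were lower than RFP- cells in both comparisons, by -0.63 (-0.79 to -0.47) between BFP+RFP+ and BFP+RFP- cells and by -0.29 (-0.44 to -0.15) between BFP-RFP+ and BFP-RFP- cells.

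The share of cells with an Il13ra1 UMI ran the same way. With every cell thinned to 5000 UMIs, which left out 377 shallower cells, it was 13.2% (104 of 786) in BFP+RFP+ cells against 19.3% (174 of 900) in BFP-RFP+ cells. It was 18.6% (377 of 2032) in BFP+RFP- cells against 22.3% (207 of 928) in BFP-RFP- cells. The unthinned shares were 28.6% against 39.6% and 38.4% against 43.6%. In T and NK cell-like cells, set beside these as a reference, the thinned share was 5.15% (10 of 194) at a median of 8935 UMIs per cell. The dendritic cell marker Ccl22 had 2841 UMIs in 106 of the 226 T and NK cell-like cells. Whether such RNA came from free RNA or from dendritic cells under the same barcode was not tested. This reference is therefore no measure of free RNA alone.

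Within single clusters Il13ra1 was lower in BFP+RFP+ than in BFP-RFP+ cells in 6 of 6 large clusters, with the interval below 0 in 4 of them. It was lower in BFP+RFP- than in BFP-RFP- cells in 5 of 6, with the interval below 0 in 3. The widest gap lay in cluster 6 (Shisa9, Frmd5 and Cdh2 leading), at 36.2 CPM in BFP+RFP+ cells against 81.3 CPM in BFP-RFP+ cells and 47.3 CPM in BFP+RFP- cells against 90.6 CPM in BFP-RFP- cells. Cluster 0 (Ifitm1 and Isg15 leading) was the exception, at 50.9 CPM in BFP+RFP- cells against 36.7 CPM in BFP-RFP- cells, a log2 ratio of 0.47 (0.13 to 0.84). With the 6 large clusters pooled the ratios were -0.77 (-0.96 to -0.58) within RFP+ and -0.36 (-0.49 to -0.23) within RFP-. Over all alternatives run, the value stayed between -0.82 and -0.64 within RFP+ and between -0.45 and -0.34 within RFP-. The RFP difference was less even within clusters. Il13ra1 was lower in BFP+RFP+ than in BFP+RFP- cells in 6 of 6 large clusters, with the interval below 0 in 2. Between BFP-RFP+ and BFP-RFP- cells it was lower in 4 and higher in 2, with the interval below 0 in 1.

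Between clusters, all populations together, Il13ra1 was highest in clusters 1 (61.6 CPM), 6 (57.7 CPM) and 5 (56.6 CPM), whose intervals overlapped. Clusters 0 (46.2 CPM) and 7 (43.9 CPM) followed, also with overlapping intervals, then macrophage-like cells at 32.4 CPM and cluster 2 at 23.2 CPM. T and NK cell-like cells (18.0 CPM) and B cell-like cells (12.4 CPM) were lowest of the named clusters. Among macrophage-like cells it stood at 35.5 CPM in BFP+RFP+ against 36.3 CPM in BFP-RFP+ cells and at 9.55 CPM in BFP+RFP- against 57.1 CPM in BFP-RFP- cells, the last pair on 12 and 53 UMIs. Cluster 2 held 314 of the 842 BFP+RFP+ cells and 84 of the 1014 BFP-RFP- cells.

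**Figure D3:**
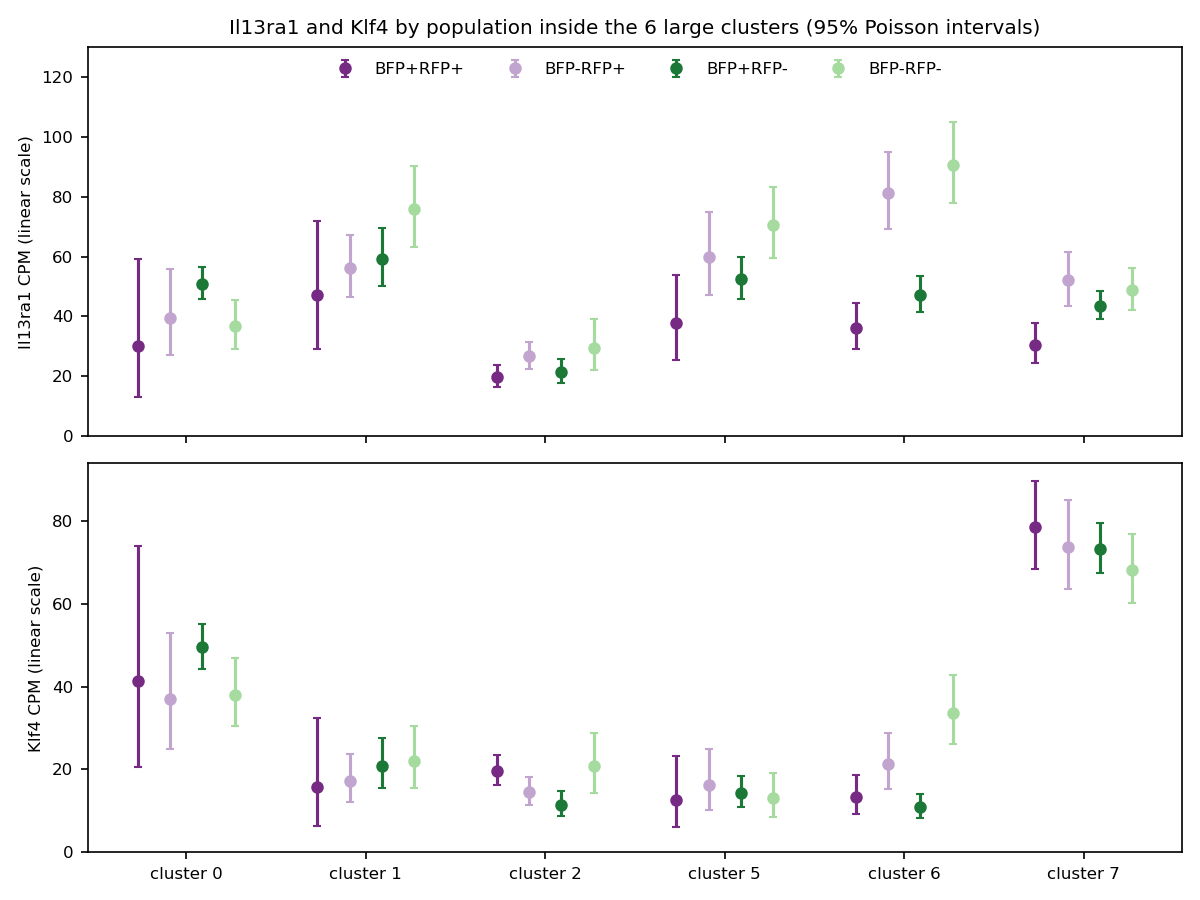
Il13ra1 (upper panel) and Klf4 (lower panel) in CPM on linear axes from 0, by population inside each of the 6 large clusters, with exact 95% Poisson intervals for counting error only. Il13ra1 was lower in BFP+ than in BFP- cells in all pairs but BFP+RFP- against BFP-RFP- in cluster 0. Klf4 separated by cluster, highest in cluster 7 in each population.

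Il4ra, the chain shared by both receptor types, differed little between populations. It stood at 64.0 CPM (59.9 to 68.3) in BFP+RFP+ cells against 57.2 CPM (53.5 to 61.0) in BFP-RFP+ cells, and at 64.7 CPM (62.1 to 67.4) in BFP+RFP- cells against 67.2 CPM (63.1 to 71.5) in BFP-RFP- cells. The log2 ratios were 0.16 (0.03 to 0.30) and -0.06 (-0.16 to 0.05), and the BFP-RFP+ cells were the lowest of the 4 populations. Of the 24 population ratios inside single large clusters 1 passed 1.5-fold, in cluster 1, at 73.9 CPM (33 UMIs) in BFP+RFP+ cells against 43.6 CPM (94 UMIs) in BFP-RFP+ cells, a log2 ratio of 0.78 (0.14 to 1.35). By cluster it ran from 51.6 CPM in macrophage-like cells to 75.5 CPM in cluster 7. T and NK cell-like cells stood higher, at 106 CPM, and the unnamed cluster 9 had 0 UMIs. Clusters 1, 2, 3, 5 and 6 (51.6 to 58.1 CPM) had overlapping intervals, as had clusters 0 and 7 (74.4 and 75.5 CPM). The 2 receptor chains therefore went apart across cells: cluster 2 was lowest of the large clusters for Il13ra1 and within the common range for Il4ra, and T and NK cell-like cells were highest for Il4ra and near the lowest for Il13ra1.

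Stat6, the factor the receptor activates, also differed little between populations. It stood at 43.8 CPM (40.5 to 47.4) in BFP+RFP+ cells against 48.9 CPM (45.5 to 52.5) in BFP-RFP+ cells, and at 40.9 CPM (38.8 to 43.0) in BFP+RFP- cells against 43.6 CPM (40.3 to 47.1) in BFP-RFP- cells. With all clusters pooled no population ratio reached 1.5-fold, and the widest was 0.16 (0.01 to 0.32) between BFP-RFP+ and BFP-RFP- cells. Inside cluster 0 the 11 BFP+RFP+ cells, with 21 UMIs, stood at 78.8 CPM against 43.2 CPM in BFP-RFP+ cells and 40.4 CPM in BFP+RFP- cells. These log2 ratios, 0.88 (0.01 to 1.69) and 0.9951 (0.25 to 1.60), were past 1.5-fold. By cluster it was highest in cluster 1 (Cd81, Ccl22 and Cd40 leading) at 64.8 CPM (58.9 to 71.2), and clusters 0, 2, 3, 5, 6, 7 and 8 lay between 35.5 and 45.1 CPM.

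Klf4, a zinc finger factor that in mice is needed for IL-13-responsive dermal dendritic cells, stood at 33.4 CPM in BFP+RFP+ cells against 36.1 CPM in BFP-RFP+ cells, and at 36.5 CPM in BFP+RFP- cells against 44.9 CPM in BFP-RFP- cells. The log2 ratios were -0.11 (-0.29 to 0.07) and -0.30 (-0.43 to -0.16), and in the 6 large clusters alone they were 0.13 (-0.08 to 0.33) and -0.09 (-0.24 to 0.06). Its clusters differed far more than its populations. Macrophage-like cells stood at 107 CPM (97.3 to 118), cluster 7 (Flrt3 and Ccrl2 leading) at 72.9 CPM and cluster 0 at 45.6 CPM, while clusters 1, 2, 5 and 6 lay between 14.2 and 19.7 CPM. Among macrophage-like cells it stood at 80.8 CPM in BFP+RFP+ against 138 CPM in BFP-RFP+ cells and at 62.9 CPM in BFP+RFP- against 153 CPM in BFP-RFP- cells, while the pooled large clusters had no such gap. After thinning, a Klf4 UMI was found in 24.7% of cells of cluster 7 and 14.3% of cluster 0, against 7.22% of T and NK cell-like cells, whose level was 35.7 CPM. Clusters 1, 2, 5 and 6 had thinned shares of 5.26% to 7.85%, near or below those cells. Whether Klf4 RNA in T and NK cell-like cells is background was not tested, and their CPM lay above that of these clusters. Between BFP+RFP- and BFP-RFP- cells Klf4 was lower in 3 and higher in 3 of the 6 large clusters. The interval was below 0 in 2 and above 0 in 1. The widest gap lay in cluster 6, at 10.8 CPM (58 UMIs) against 33.7 CPM (67 UMIs), a log2 ratio of -1.64 (-2.17 to -1.11). In cluster 7 Klf4 stood at 73.2 CPM in BFP+RFP- cells against 68.0 CPM in BFP-RFP- cells.

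Tgfbi encodes a secreted matrix protein that IL-4 raises in macrophages. It stood at 7.78 CPM (6.39 to 9.38) in BFP+RFP+ cells against 16.6 CPM (14.6 to 18.7) in BFP-RFP+ cells, and at 7.95 CPM (7.05 to 8.93) in BFP+RFP- cells against 29.0 CPM (26.4 to 31.9) in BFP-RFP- cells. Both BFP+ populations lay below both BFP- populations, with log2 ratios of -1.09 (-1.43 to -0.76) and -1.87 (-2.09 to -1.65). The summed level of the 9 macrophage markers, all detected in each population, moved with it: 39.2 CPM in BFP+RFP+ against 128 CPM in BFP-RFP+ cells, and 45.6 CPM in BFP+RFP- against 205 CPM in BFP-RFP- cells. The 6 monocyte markers summed to 186 against 505 CPM and 144 against 476 CPM in the same pairs. The difference was therefore taken inside and outside cluster 3.

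Inside the macrophage-like cluster, Tgfbi stood at 147 CPM (26 cells) in BFP+RFP+ cells against 228 CPM (37 cells) in BFP-RFP+ cells, a log2 ratio of -0.63 (-0.9997 to -0.28). It stood at 168 CPM (43 cells) in BFP+RFP- cells against 419 CPM (40 cells) in BFP-RFP- cells, a log2 ratio of -1.32 (-1.57 to -1.07). In the 6 large clusters it was 1.09 CPM (14 UMIs) in BFP+RFP+ cells against 2.43 CPM (34 UMIs) in BFP-RFP+ cells, and 2.17 CPM (70 UMIs) in BFP+RFP- cells against 3.18 CPM (43 UMIs) in BFP-RFP- cells. Among the large clusters cluster 0 was highest, at 5.33 CPM. Tgfbi was found in 48.6% of macrophage-like cells and 2.25% of cells of the large clusters, and after thinning in 37.4% (52 of 139) and 0.92% (39 of 4261), with 0 of 194 T and NK cell-like cells, which allows a share of cells with a UMI of up to 1.55% (3 counts of the total).

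Mrc1, the mannose receptor CD206 and a widely used marker of IL-4-activated macrophages, stood at 3.39 CPM in BFP+RFP+ cells against 5.46 CPM in BFP-RFP+ cells, and at 4.24 CPM in BFP+RFP- cells against 9.61 CPM in BFP-RFP- cells. The log2 ratios were -0.68 (-1.23 to -0.16) and -1.18 (-1.52 to -0.84). Inside cluster 3 only the second pair kept its direction. There Mrc1 stood at 56.5 CPM in BFP+RFP+ cells against 31.3 CPM in BFP-RFP+ cells and at 83.5 CPM in BFP+RFP- cells against 118 CPM in BFP-RFP- cells. The first pair had the opposite sign, 0.85 (0.12 to 1.60), on 35 and 31 UMIs, and the second was -0.50 (-0.90 to -0.10), under 1.5-fold. When hashtags were called by HTODemux, a published classifier, the ratio over all BFP+RFP+ and BFP-RFP+ cells was 0.70, so its sign depended on which cells were kept. In the 6 large clusters Mrc1 stood at 1.01 against 3.93 CPM and at 1.36 against 2.44 CPM in the same pairs, and cluster 2 was highest of them at 4.84 CPM. In cluster 2 Mrc1 stood at 1.48 CPM (9 UMIs) in BFP+RFP+ cells against 9.16 CPM (48 UMIs) in BFP-RFP+ cells, and at 1.85 CPM (10 UMIs) in BFP+RFP- cells against 13.0 CPM (22 UMIs) in BFP-RFP- cells. The log2 ratios there were -2.57 (-3.84 to -1.59) and -2.78 (-4.06 to -1.68).

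**Figure D4:**
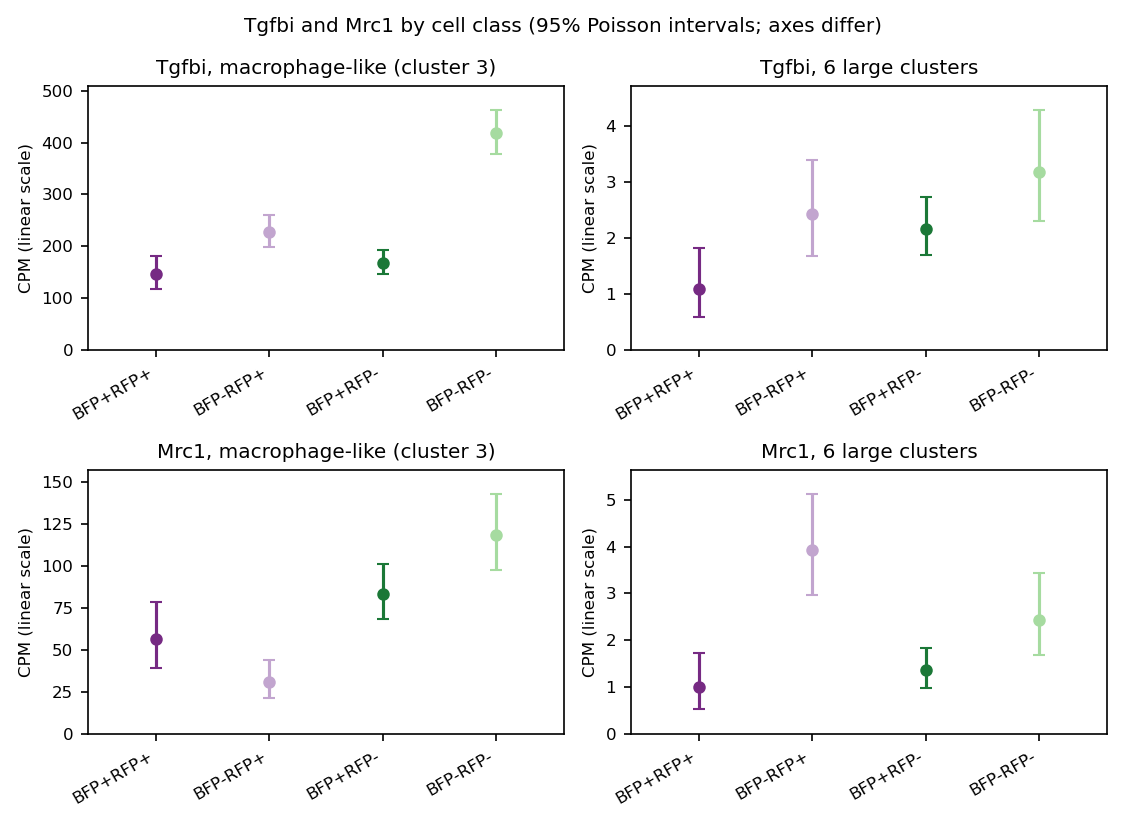
Tgfbi (upper row) and Mrc1 (lower row) in CPM by population, in macrophage-like cells (left) and in the 6 large clusters (right), on linear axes from 0 that differ between panels. Bars are exact 95% Poisson intervals for counting error only. Tgfbi was highest in BFP-RFP- cells on both sides, at 419 CPM on the left and 3.18 CPM on the right, whereas Mrc1 was highest in BFP-RFP- cells on the left and in BFP-RFP+ cells on the right. On the right these ranks are not resolved. The Tgfbi interval of BFP-RFP- cells (2.30 to 4.28) overlapped those of BFP-RFP+ (1.68 to 3.40) and BFP+RFP- cells (1.69 to 2.74). The Mrc1 intervals of BFP-RFP+ (2.96 to 5.12) and BFP-RFP- cells (1.68 to 3.43) also overlapped.

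Ccl24, the eosinophil attractant eotaxin 2, stood at 3.39 CPM (2.50 to 4.50) in BFP+RFP+ cells against 21.6 CPM (19.4 to 24.0) in BFP-RFP+ cells, and at 4.95 CPM (4.24 to 5.73) in BFP+RFP- cells against 8.81 CPM (7.36 to 10.4) in BFP-RFP- cells. The high value of BFP-RFP+ cells came from cluster 2, where 11 cells with a UMI held 314 of that population's 340. In cluster 2 the level was 59.9 CPM in BFP-RFP+ cells, against 5.59 CPM in BFP+RFP+, 12.4 CPM in BFP+RFP- and 5.92 CPM in BFP-RFP- cells. The 5 cells with most Ccl24 held 53.2% of all its UMIs. The top 3 were BFP-RFP+ cells of cluster 2 with 135, 76 and 58 UMIs. The fourth, with 57 UMIs, was a macrophage-like BFP-RFP- cell with 85 C1qa UMIs. Without those 5 cells the log2 ratio of BFP+RFP+ to BFP-RFP+ cells was -0.41 in place of -2.66, and that of BFP+RFP- to BFP-RFP- cells was -0.43 in place of -0.83, neither past 1.5-fold. The share of cells with a Ccl24 UMI was 0.59% (5 of 842) in BFP+RFP+ cells against 1.83% (18 of 982) in BFP-RFP+ cells, and 1.14% (25 of 2185) in BFP+RFP- cells against 1.58% (16 of 1014) in BFP-RFP- cells. In the shallower T and NK cell-like cells it was 0.88%. After thinning, the shares were 0.51% against 1.0% and 0.64% against 0.97% in the same pairs. In T and NK cell-like cells the thinned share was 0.52% (1 of 194), with an interval of 0.013% to 2.84%. That reference rests on 1 cell and cannot show whether these shares are background, and no difference is read from them. Of the 64 cells with a Ccl24 UMI, 35 had 3 or more.

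Retnla encodes RELM-alpha (FIZZ1), a secreted protein that is among the most strongly STAT6-dependent products of mouse macrophages. It had 1 UMI in BFP+RFP+ cells against 0 in BFP-RFP+ cells. The count was 677 in BFP+RFP- cells against 5 in BFP-RFP- cells. Of the 677 UMIs, 2 macrophage-like cells held 520 and 155, which were 1.29% and 0.29% of each cell's mRNA UMIs. Their hashtag shares were 99.0% and 98.6%. They had 3620 and 1675 CD11b tag UMIs, 133 and 251 Lyz2 UMIs, 9 and 18 Mrc1 UMIs and 6 and 0 C1qa UMIs. They also had 47 and 42 UMIs of Ccr7, a listed marker of conventional dendritic cells, among 40165 and 54294 mRNA UMIs. Whether either barcode is a doublet within its hashtag was not tested. The other 144 macrophage-like cells had 0 Retnla UMIs. The remaining 8 UMIs were spread over 7 cells of the large clusters. The population difference in Retnla is therefore a statement about 2 cells.

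Fcer2a encodes the low-affinity IgE receptor CD23, which IL-4 raises on B cells and myeloid cells. It stood at 2.05 CPM (29 UMIs) in BFP+RFP+ cells against 1.33 CPM (21 UMIs) in BFP-RFP+ cells, and at 2.98 CPM (106 UMIs) in BFP+RFP- cells against 3.56 CPM (53 UMIs) in BFP-RFP- cells. The log2 ratio of the first pair was 0.61 (-0.24 to 1.5), with an interval that spans 0, and that of the second -0.27 (-0.75 to 0.25). The 8 B cell markers, all detected, summed to 94.3 against 61.3 CPM and to 94.0 against 60.1 CPM in the same pairs. In B cell-like cells Fcer2a stood at 170 CPM and was found in 71.1% of cells, and by population it was 213 CPM in BFP+RFP+ against 178 CPM in BFP-RFP+ cells and 161 CPM in BFP+RFP- against 173 CPM in BFP-RFP- cells. In the large clusters it was found in 0.46% of cells, against 0.88% of T and NK cell-like cells, with medians of 14783 and 8935 UMIs per cell. The T and NK cell-like share rests on 2 cells (interval 0.11% to 3.16%). It cannot show whether Fcer2a RNA in the large clusters is background. Macrophage-like cells held 40 Fcer2a UMIs, 34 of them in BFP-RFP- cells. One macrophage-like BFP-RFP- cell, picked out after its value was seen, had 28 Fcer2a UMIs, 28 Mgl2 UMIs, 0 Cd79a UMIs and 1547 CD301b tag UMIs.

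The antibody tags divided the same cells by surface protein: CD11b, an integrin of monocytes, macrophages and type 2 dendritic cells, CD8a, CD172a (SIRPa, a type 2 dendritic cell and macrophage receptor) and CD301b (the lectin MGL2). Cells were put into quartiles of each tag's UMIs over all kept cells. The RNA of the tagged protein ran with its tag, at 5.24 CPM of Itgam in the highest CD11b quartile and 0 to 0.17 CPM in the others, 1.40, 4.89, 13.0 and 65.1 CPM of Cd8a, 25.7, 56.6, 82.1 and 149 CPM of Sirpa and 5.43, 5.88, 9.48 and 42.7 CPM of Mgl2 from the lowest to the highest quartile. Cells with more tag also had more mRNA, with medians of 11011 UMIs in the lowest and 18217 in the highest CD172a quartile. B cell-like cells were most frequent in the lowest quartile of each tag, and T and NK cell-like cells in the lowest quartile of CD11b, CD172a and CD301b. They made up 6.16% (B cell-like) and 13.0% (T and NK cell-like) of the lowest CD172a quartile. For CD8a, T and NK cell-like cells made up 7.25% of the highest and 5.75% of the lowest quartile. The part of depth in these differences was not tested beyond the alternatives given below, which include quartiles of a tag's share of tag UMIs.

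Past 1.5-fold between the highest and the lowest quartile were 5 members higher and 1 lower for CD11b (beside 8.81% and 13.2% of 11618 genes), and 2 higher and 5 lower for CD8a (beside 6.15% and 12.3% of 11567). For CD172a 5 were higher and 1 lower (beside 8.08% and 17.0% of 11681), and for CD301b 3 higher and 1 lower (beside 4.71% and 12.1% of 11602). In either direction 22.0%, 18.5%, 25.0% and 16.8% of genes passed 1.5-fold for these tags in the order given. The members' median log2 ratio was 0.71, -0.81, 0.62 and 0.45, and that of all tested genes -0.09, -0.10, -0.13 and -0.10, for the tags in the same order. In the large clusters, with the same quartile limits, 1 of 7 members was higher for CD11b (Tgfbi) and 0 lower, beside 7.92% and 8.61% of genes. For CD172a 3 of 7 were higher there (Il13ra1, Tgfbi and Mrc1) and 1 lower (Ccl24), beside 7.22% and 10.9%.

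Il13ra1 was higher in each next quartile of CD172a, at 24.1, 38.9, 46.8 and 52.0 CPM from lowest to highest, a log2 ratio of 1.11 (0.94 to 1.28) between the ends. Over the quartiles of CD8a it stood at 57.5, 52.6, 40.2 and 28.4 CPM, a log2 ratio of -1.02 (-1.16 to -0.88). In each of the 4 populations the highest quartile stood above the lowest for CD172a, with log2 ratios of 0.80 in BFP+RFP+, 1.01 in BFP-RFP+, 0.85 in BFP+RFP- and 1.38 in BFP-RFP- cells. For CD8a the 4 ratios were -1.22, -0.54, -1.02 and -0.70 in the same order. In the large clusters, with the same quartile limits, they were 0.93 (0.76 to 1.11) for CD172a and -1.07 (-1.22 to -0.93) for CD8a. Over CD301b the levels were 35.8, 39.5, 43.0 and 48.9 CPM, and over CD11b 42.6, 43.2, 36.8 and 46.6 CPM, neither past 1.5-fold. Over all alternatives run, quartiles of tag share among them, the Il13ra1 ratio lay between 0.84 and 1.29 for CD172a. For CD8a it lay between -1.44 and -0.91.

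The populations also differed in the tags, with median CD8a tag counts of 121 in BFP+RFP+ against 63 in BFP-RFP+ cells. The medians were 42 in BFP+RFP- against 40 in BFP-RFP- cells, and those of CD172a were 64 against 99 and 92 against 129 in the same pairs. The BFP difference in Il13ra1 was therefore taken inside each quartile of each tag. It was lower in BFP+RFP+ than in BFP-RFP+ cells in 16 of 16 quartiles, with ratios of -1.09 to -0.29 and the interval below 0 in 13. It was lower in BFP+RFP- than in BFP-RFP- cells in 16 of 16, with ratios of -0.80 to -0.02 and the interval below 0 in 10. In the highest CD8a quartile it stood at 18.0 CPM in BFP+RFP+ cells against 36.5 CPM in BFP-RFP+ cells. The quartiles of different tags hold the same cells and are not independent of each other.

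**Figure D5:**
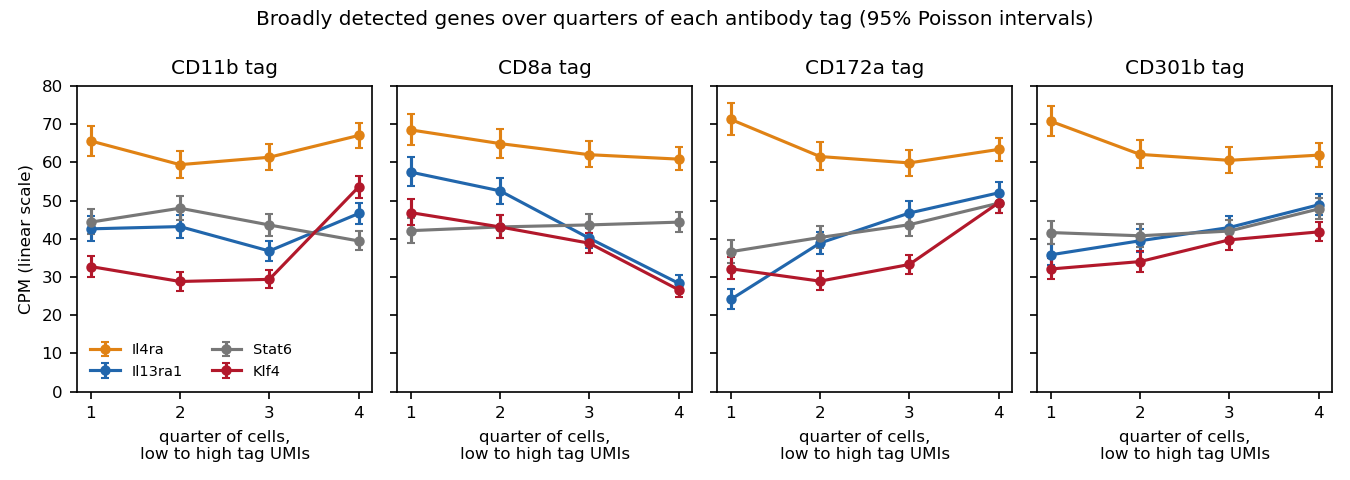
Levels (CPM, linear axis from 0) of Il4ra, Il13ra1, Stat6 and Klf4 over quartiles of cells by the UMIs of each antibody tag, from low to high, all populations together, with exact 95% Poisson intervals for counting error only. Il13ra1 ran from 24.1 to 52.0 CPM over CD172a and from 57.5 to 28.4 CPM over CD8a, Klf4 stood out in the highest CD11b quartile at 53.6 CPM, and Il4ra lay between 59.4 and 71.3 CPM throughout.

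Klf4 stood at 32.7, 28.8, 29.4 and 53.6 CPM over the quartiles of CD11b, a log2 ratio of 0.71 (0.56 to 0.86), and at 46.9, 43.1, 38.9 and 26.7 CPM over those of CD8a, a log2 ratio of -0.81 (-0.96 to -0.66). In the large clusters alone the CD11b ratio was 0.23 (0.07 to 0.39) and no longer past 1.5-fold, and the CD8a ratio was -0.62 (-0.80 to -0.44). Macrophage-like cells made up 6.23% of the highest CD11b quartile and 1.43% of the lowest. Over CD172a Klf4 had a ratio of 0.62 over all cells and 0.17 in the large clusters. Over all alternatives run, the CD11b ratio of Klf4 lay between 0.24 and 0.92 and its CD8a ratio between -1.24 and -0.59. Stat6 moved most over CD172a, at 36.6, 40.4, 43.7 and 49.3 CPM, a ratio of 0.43 (0.28 to 0.58) that stayed under 1.5-fold. With all populations pooled the widest Il4ra ratio was -0.19 (-0.30 to -0.08), for CD301b. Inside single populations the Il4ra ratios over the 4 tags also stayed under 1.5-fold, the widest being -0.50 (-0.75 to -0.24) for CD172a in BFP-RFP- cells.

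Tgfbi stood at 0.67, 1.45, 4.21 and 38.7 CPM over the quartiles of CD11b and Mrc1 at 1.39, 1.45, 2.69 and 13.0 CPM. For CD11b the highest quartile was above the lowest in each population, with log2 ratios of 4.45 to 6.48 for Tgfbi and of 2.42 to 4.04 for Mrc1. In the large clusters the CD11b ratio of Tgfbi was 2.37 and that of Mrc1 0.28. Over CD172a Tgfbi stood at 1.33, 1.68, 5.97 and 34.4 CPM and Mrc1 at 0.86, 2.82, 2.27 and 11.9 CPM. When cells were divided by a tag's share of their tag UMIs in place of its count, the CD172a ratios turned to -0.50 for Tgfbi and -1.33 for Mrc1, and the CD301b ratio of Tgfbi, 1.37 by count, to -1.04, so these directions depended on the scale of the tag.

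Ccl24 stood at 0.34, 7.57, 6.92 and 16.6 CPM over the quartiles of CD301b, with 6 UMIs in the lowest and 415 in the highest, a log2 ratio of 5.48 (4.46 to 7.05). Without the 5 cells with most Ccl24 it was 4.28, and in the large clusters 5.46. With quartiles of the tag's share it was 0.66, still past 1.5-fold. Over CD8a Ccl24 stood at 4.02, 7.81, 8.57 and 12.1 CPM, a log2 ratio of 1.58 that was 0.29 with quartiles of the tag's share and 0.38 without the 5 top cells. Retnla had 681 of its 683 UMIs in the highest CD11b quartile, which held both cells described above. Fcer2a stood at 7.02 CPM in the lowest CD11b quartile and at 1.45, 2.03 and 0.97 CPM in the next 3, and the lowest quartile held 5.18% B cell-like cells against 0.16% to 1.09% in the next 3.

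The other genes of receptor signalling were a list of 10. Between BFP+RFP+ and BFP-RFP+ cells, between BFP+RFP- and BFP-RFP- cells and between BFP+RFP+ and BFP+RFP- cells 0 of the 9 with enough UMIs passed 1.5-fold, and between BFP-RFP+ and BFP-RFP- cells 1 did (Cish), beside 13.6%, 9.80%, 12.7% and 10.6% of all genes. Over CD11b 2 of the 9 were higher in the highest quartile, Irs2 (0.60) and Cish (0.99), and over CD172a 1 was, Irs2 (0.66), beside 8.81% and 8.08% of genes, with 0 over CD8a and CD301b. Il2rg, the common gamma chain, stood at 126 CPM in BFP+RFP+ against 120 CPM in BFP-RFP+ cells and at 104 CPM in BFP+RFP- against 104 CPM in BFP-RFP- cells. The kinase Jak1 stood at 145 against 156 and 144 against 153 CPM in the same pairs. Cish, an inhibitor of cytokine signalling that STATs induce, stood at 40.5 CPM in BFP-RFP+ against 25.4 CPM in BFP-RFP- cells, a ratio of 0.67. Socs1, another inhibitor, had ratios of 0.36 and 0.18 for BFP+ over BFP- within RFP+ and RFP-. Il13ra2, the decoy receptor for IL-13, had 1 UMI in all cells.

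The ligands were rare. Il4 had 50 UMIs in 11 cells and Il13 46 UMIs in 13 cells. The Il4 UMIs lay in 4 T and NK cell-like cells (18), 3 macrophage-like cells (21), 1 B cell-like cell (6) and 3 cells of the large clusters (5). Il13 had 29 UMIs in 3 macrophage-like cells and 17 UMIs in 10 cells of the large clusters.

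Of 17 other genes that IL-4 or IL-13 are known to induce in myeloid cells, 14 had enough UMIs in both BFP comparisons. In BFP+RFP+ against BFP-RFP+ cells 6 were past 1.5-fold lower and 0 higher: Mgl2, Clec10a, Egr2, Ccl17, Pdcd1lg2 and Cdh1, beside 10.8% of genes lower and 2.82% higher. In BFP+RFP- against BFP-RFP- cells 7 were lower and 0 higher: Chil3, Mgl2, Clec10a, Egr2, Cdh1, Myc and Ccl8, beside 6.67% lower and 3.13% higher. Chil3 had only 93 UMIs in 8 cells, 92 of them in macrophage-like cells. Of the 240 Myc UMIs, B cell-like cells held 70 and T and NK cell-like cells 79. The list medians were -0.38 and -0.48, against -0.10 and -0.07 over all tested genes, and in the large clusters -0.66 and -0.21, with 6 of 12 and 4 of 13 lower, beside 9.41% and 5.15% of genes, and 0 and 1 (Il1rn) higher. The lectin gene Mgl2 stood at 12.8 CPM in BFP+RFP+ against 43.9 CPM in BFP-RFP+ cells and at 9.44 CPM in BFP+RFP- against 16.6 CPM in BFP-RFP- cells. The unthinned shares of cells with an Mgl2 UMI were closer, at 7.96% against 9.06% and 5.81% against 5.23%. The 5 cells with most Mgl2 held 20.8% of its UMIs. The chemokine Ccl17 stood at 256 against 468 CPM and at 399 against 441 CPM in the same pairs, and Pdcd1lg2, which encodes PD-L2, at 47.5 against 77.7 CPM and at 76.5 against 95.4 CPM. The shares of cells with a UMI were 48.8% against 49.4% and 54.2% against 53.7% for Ccl17. For Pdcd1lg2 they were 39.4% against 40.7% and 41.8% against 45.3%. Ccl22, a chemokine of the same receptor as Ccl17, had ratios of 0.04 and 0.12. Chil4 and Alox15 had 0 UMIs and Arg1 had 6.

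Between RFP+ and RFP- cells that list was mixed in all cells. In BFP+RFP+ against BFP+RFP- cells 2 were higher and 3 lower of 13 (beside 5.22% and 7.49% of genes). In BFP-RFP+ against BFP-RFP- cells 3 were higher and 1 lower of 14 (beside 6.35% and 4.25%). In the large clusters the first pair had 2 higher and 3 lower of 11, beside 5.74% and 7.49%. The second pair had 5 of 13 higher there (Mgl2, Clec10a, Egr2, Cdh1 and Ccl8) and 1 lower (Myc), beside 6.26% and 3.81%. Over the tags, 10 of 14 were past 1.5-fold higher in the highest quartile for CD11b and 10 of 14 for CD172a, with 1 lower (Myc) in each, beside 8.81% and 8.08% of genes higher and 13.2% and 17.0% lower. In the large clusters 5 of 12 were higher for CD11b and 7 of 13 for CD172a, with 0 lower in each, beside 7.92% and 7.22% of genes higher and 8.61% and 10.9% lower. Over CD8a, in all cells, 3 were higher and 4 lower of 14, beside 6.15% and 12.3%. The 7 markers of CD11b-positive type 2 dendritic cells, 2 of which (Clec10a and Mgl2) are on the list, summed to 79.2 against 201 CPM within RFP+ and to 104 against 175 CPM within RFP- for BFP+ against BFP- cells. Their part in the list's lower level was not tested.

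For the 5 members with at least 1000 UMIs, the genes with the most similar pattern were taken by Pearson's correlation of log2(CPM + 10) over 33 combinations of cluster and population with at least 20 cells, among 6315 genes. The points share 1 capture and are given as a description. Il13ra1 ran closest to Itpripl2 (0.86), Sat1 (0.86), Casp9 (0.82), Mfsd1 (0.82) and Zfp992 (0.80). Klf4 ran closest to Ccrl2 (0.88), Atf3 (0.87), Osm (0.86), Fosb (0.85) and Nfe2l2 (0.83). Tgfbi ran closest to Naaa (0.92), Rnf149 (0.91), Slc15a3 (0.90), Nusap1 (0.89) and C1qa (0.89). For Il4ra the closest were Tsc22d3, Katna1, Ppp1r12a, Chd1 and Tpr (0.90 to 0.91), and for Stat6 Noct, Fmnl1, Flna, Mob3b and Tle3 (0.69 to 0.73). Detection of the broad members in the same cell was near the product of their shares: 23.8% of the 4527 cells of the large clusters had both Il4ra and Il13ra1, where the product was 22.3%, and 19.6% had both Il13ra1 and Stat6, where the product was 17.4%.

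STAT6 is known to bind a palindrome with a wider gap than other STATs, spelled TTCNNNNGAA, which reads the same on both strands. It was searched in the 250 bases before each annotated start in the RefSeq promoter table (build GRCm38.p6), where 8 of the 9 members had 10 promoters and Ccl24 was not matched. It occurred in 5.85% of 32851 promoters and in 2 of the 10 of the members. These 2, on the sense strand of each gene, are printed with the match in capitals, since they are the only member windows that hold it. Retnla is the member with nearly all its UMIs in 2 macrophage-like cells here and Fcer2a the one held mostly by B cell-like cells. The first is at chr16:48842359-48842608 on the plus strand and the second at chr8:3690862-3691111 on the minus strand, upstream of 1 of 3 annotated Fcer2a starts.
Retnla: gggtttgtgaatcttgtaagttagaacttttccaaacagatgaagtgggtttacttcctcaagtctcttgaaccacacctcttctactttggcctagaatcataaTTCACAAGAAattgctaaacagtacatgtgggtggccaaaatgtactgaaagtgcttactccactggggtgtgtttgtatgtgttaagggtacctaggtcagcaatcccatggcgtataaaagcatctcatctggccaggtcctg
Fcer2a: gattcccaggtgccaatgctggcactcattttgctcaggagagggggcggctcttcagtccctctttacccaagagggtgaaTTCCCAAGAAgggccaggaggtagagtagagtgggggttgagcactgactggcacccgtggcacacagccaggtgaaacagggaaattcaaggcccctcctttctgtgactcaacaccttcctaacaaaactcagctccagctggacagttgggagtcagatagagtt
The matches begin 145 bases before the Retnla start and 168 bases before the Fcer2a start. A match is a run of letters and no measurement of binding.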

How the data were processed

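The deposited matrix held raw UMI counts per cell barcode for 22548 genes, 4 antibody tags and 4 hashtags, made, per the file headers, with Cell Ranger 7.0.0 and, per the submitters' processing notes, on GRCm39 (mm39). Per the labels' protocols it came from 1 pool sequenced as reads of 28 and 85 bases. How the authors called cells is not stated in the sources used here.

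Cells were kept where 1 hashtag held 80% or more of the hashtag UMIs, with 1000 or more mRNA UMIs and no more than 10% of them mitochondrial. Of 6079 barcodes, all distinct, 699 (11.5%) had no such hashtag and were left out as likely doublets or unlabelled cells, and 357 failed the other limits. Doublets within a hashtag could not be removed. All 22548 gene rows entered the totals, and no column of the matrix was left unused. UMIs were summed per group, with exact Poisson intervals for levels, conditional binomial intervals for ratios and Clopper-Pearson intervals for shares (scipy 1.17.1, Python 3.11.15). Where a share was 0, the limit given is 3 counts of the total. Clusters came from scanpy 1.11.5 (2000 variable genes, 30 principal components, 15 neighbours, Leiden resolution 0.5), with 43 genes left out: the members, the pathway lists, Tnfsf4, Siglech and the reporters. HTODemux (Seurat 5.3.0, R 4.3.3) was an alternative. The ratio code was tested on simulated data. The named genes are the 9 members, the pathway and marker lists, the genes of the tagged proteins and, for members with at least 1000 UMIs, the 5 genes closest in pattern. The members and lists were chosen with earlier results of these data known.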

Additional observations from a re-analysis of the deposited data

Results flagged for a closer look

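Ccl24 ran in opposite directions between RFP+ and RFP- cells. The log2 ratio was -0.53 (-1.03 to -0.08) between BFP+RFP+ and BFP+RFP- cells, at 3.39 against 4.95 CPM, and 1.29 (1.00 to 1.60) between BFP-RFP+ and BFP-RFP- cells, at 21.6 against 8.81 CPM. The difference between the 2 ratios was not tested, since each population is 1 sample. The first ratio did not keep its direction: it was 0.03 with HTODemux and 1.17 with equal weight for the 6 large clusters, where the second was 1.44 and 1.31, so that both were above 0. Without the 5 cells with most Ccl24 the first ratio was -0.12 and the second -0.13.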

How the results depend on the processing

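Over 17 other settings, 619 of 716 ratios of single members (9 between populations, the 4 broad ones over tags) stayed within their counting interval, 88 moved beyond it and 9, of ratios past 1.5-fold, changed sign. The setting without a UMI minimum cannot change a ratio, so all its ratios are among those that stayed. Ratios that fell under the minimum in a setting were not counted. Among ratios under 1.5-fold 37 changed sign, including Ccl24 (0.03 with HTODemux, 1.17 with equal cluster weights), Mrc1 (up to 0.43) and Tgfbi (up to 1.25) for RFP+ over RFP- within BFP+, Fcer2a for BFP+ over BFP- within RFP- (up to 1.15) and Klf4 within RFP+ (up to 0.13). The number of members past 1.5-fold moved as follows. With the 6 large clusters alone, and tag quartiles redrawn in those cells, it was 1 for BFP+ over BFP- within RFP-, 2 for RFP+ over RFP- within BFP-, 2 for CD11b (1 with the quartile limits of all cells), 4 for CD8a and 2 for CD301b. Without the 5% deepest cells it was 2 for BFP+ over BFP- within RFP- and 0 for RFP+ over RFP- within BFP+, where equal weight for each cell gave 1. With the same mix of CD301b quartiles it was 3 for BFP+ over BFP- within RFP+, and with the same mix of CD11b quartiles 3 there, 4 for RFP+ over RFP- within BFP+ and 2 within BFP-.

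Of the settings added after the data were seen, leaving out the 5 cells with most UMIs of each member gave 1 for RFP+ over RFP- within BFP- and 4 for CD8a. Leaving out cluster 3 gave 2 for BFP+ over BFP- within RFP-, 1 for RFP+ over RFP- within BFP+, 2 within BFP- and 3 for CD11b. Equal weight for the 6 large clusters gave 3 and 2 for BFP+ over BFP- within RFP+ and RFP-, and 1 for RFP+ over RFP- within BFP-.

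The ratios past 1.5-fold that changed sign were these. For BFP+ over BFP- within RFP+, Mrc1 was 0.70 with HTODemux, Fcer2a -0.092 with at least 5000 UMIs per cell, and Tgfbi 0.80 with equal cluster weights. For BFP+ over BFP- within RFP-, Ccl24 was 0.058 in the large clusters and 0.053 without cluster 3. For RFP+ over RFP- within BFP-, Mrc1 was 0.68 in the large clusters, 0.036 without its 5 top cells and 0.65 without cluster 3, and Ccl24 was -0.13 without its 5 top cells. Outside that count, among the tag ratios of the 5 targets, 9 past 1.5-fold and 5 under it changed sign. Quartiles of a tag's share of tag UMIs changed the sign for Retnla (CD8a -8.35, CD172a -7.15, CD301b -4.79), Tgfbi (CD172a -0.50, CD301b -1.04), Mrc1 (CD172a -1.33) and Fcer2a (CD301b 4.43), and Mrc1 over CD8a was 0.01 without its 5 top cells and 0.11 without cluster 3. The cause was not tested beyond what leaving these cells out shows. No paired analysis was possible because the 4 populations are 1 sample each and carry no replicate number. Counts of 50 UMIs or fewer, as for Fcer2a within RFP+, limit what depth can show.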
